A study of Mus musculus with 4 samples.

Results

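The pigmented smooth muscle nuclei described here are 910 of the 32299 nuclei with at most 5% mitochondrial UMIs in single-nucleus RNA libraries of mouse retina. A nucleus was taken as a member when Myh11, Acta2, Smtn, Mylk, Carmn and Tagln together gave at least 5 UMIs with at least 3 of these 6 genes detected, and Pmel, Gpnmb, Mlana, Tyrp1 and Dct together gave at least 2. Members also had at most 1 UMI of Rpe65, at most 2 of Gad1, Slc6a9 and Slc17a6 together and at most 3 of Slc1a3 and Glul together, which sets a ceiling on genes of retinal pigment epithelium, neurons and Müller glia. A UMI is 1 tagged RNA molecule. The study profiled nuclei of left eyes with the 10x method, in 2 libraries from mice of 5 months, for which the labels give no genotype, and 2 libraries from wild type mice of 2.5 months. The labels name neither strain nor sex, and they number the donors of each age, so each library was treated as 1 animal. Although human retina and an eye bank appear in the text of the series, all 4 libraries are labelled as mouse. Every 5-month library was counted with Cell Ranger 4.0.0 and every 2.5-month library with Cell Ranger 7.1.0, and in the comparisons of ages below the effect of the program and that of age cannot be told apart.

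Smooth muscle contracts when a G protein-coupled receptor raises calcium in the cell, calcium and calmodulin activate myosin light chain kinase (Mylk), and the kinase acts on smooth muscle myosin (Myh11) that pulls on actin (Acta2). In the eye, the sphincter and dilator muscles of the iris set the size of the pupil. They differ from other smooth muscle in that they arise from the neuroectoderm of the optic cup, and the dilator is a layer of pigmented muscle-like epithelium that makes melanin. Melanin is built in melanosomes, whose scaffold protein is Pmel, by the enzymes Tyr, Tyrp1 and Dct.

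The upstream sequences of 6 genes are shown because the members are defined by having a melanin and a contractile programme at once, together with receptors that are nearly absent from other pigment nuclei. All are the 250 bases before the annotated start of the gene, from RefSeq on GRCm38.p6, 5′ to 3′ on the strand of the gene. Capitals in Tyr (chr7:87493513-87493762, minus strand), Tyrp1 (chr4:80833963-80834212, plus strand) and Dct (chr14:118052247-118052496, minus strand) mark CATGTG, the letters of the E-box that MITF and related factors bind, searched on both strands. Capitals in Myl9 (chr2:156775214-156775463, plus strand) mark a CArG box, the element bound by serum response factor. In Tacr3 (chr3:134828757-134829006, plus strand) they mark TATAAA, also searched on both strands. Chrm2 (chr6:36387834-36388083, plus strand) held none of these letters in this window.
Tyr: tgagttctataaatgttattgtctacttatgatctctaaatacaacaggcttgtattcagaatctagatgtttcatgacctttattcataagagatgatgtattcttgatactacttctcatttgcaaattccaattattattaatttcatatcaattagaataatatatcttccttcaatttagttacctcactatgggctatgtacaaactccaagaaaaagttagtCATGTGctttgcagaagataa
Tyrp1: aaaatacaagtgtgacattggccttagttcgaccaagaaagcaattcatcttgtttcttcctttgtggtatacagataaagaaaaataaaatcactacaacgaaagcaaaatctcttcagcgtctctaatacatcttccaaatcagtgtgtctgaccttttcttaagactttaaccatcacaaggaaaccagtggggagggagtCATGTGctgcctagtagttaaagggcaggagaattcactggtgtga
Dct: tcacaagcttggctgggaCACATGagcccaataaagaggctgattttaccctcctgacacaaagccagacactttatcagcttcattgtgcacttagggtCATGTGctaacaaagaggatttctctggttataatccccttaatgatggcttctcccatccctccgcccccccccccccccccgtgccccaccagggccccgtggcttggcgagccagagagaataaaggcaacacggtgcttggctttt
Myl9: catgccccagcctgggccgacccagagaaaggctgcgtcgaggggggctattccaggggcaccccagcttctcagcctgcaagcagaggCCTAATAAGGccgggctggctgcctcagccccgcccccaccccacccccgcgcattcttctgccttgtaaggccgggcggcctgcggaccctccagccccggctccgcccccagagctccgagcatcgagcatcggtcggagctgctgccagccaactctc
Tacr3: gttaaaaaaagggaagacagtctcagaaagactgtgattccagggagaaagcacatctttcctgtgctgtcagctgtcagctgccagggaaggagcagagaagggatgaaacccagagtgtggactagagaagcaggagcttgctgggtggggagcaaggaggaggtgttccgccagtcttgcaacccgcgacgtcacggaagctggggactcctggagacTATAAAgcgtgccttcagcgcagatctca
Chrm2: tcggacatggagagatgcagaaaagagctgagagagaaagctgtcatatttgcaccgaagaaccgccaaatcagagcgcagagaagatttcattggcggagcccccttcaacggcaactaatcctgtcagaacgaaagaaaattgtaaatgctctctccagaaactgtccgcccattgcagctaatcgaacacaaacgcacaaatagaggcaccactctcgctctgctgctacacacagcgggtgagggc

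CATGTG starts 21 bases before the start of Tyr, 46 before that of Tyrp1, and 232 and 150 before that of Dct. The CArG box of Myl9 starts 161 bases and the TATAAA of Tacr3 29 bases before the start. The first match in Dct is on the other strand, where it reads CACATG, and no match overlaps another. Of 32851 such windows in the table, 12.3% hold CATGTG, 1.47% a CArG box and 12.4% TATAAA. Of the 28 melanin pathway genes listed outside the rule, 23 matched the table by symbol and 7 held CATGTG: Hps1, Mc1r, Oca2, Slc24a5, Slc7a11, Trpm1 and Tyr. Of 25 contractile genes, 22 matched and 4 held a CArG box: Ldb3, Myl6, Myl9 and Vcl. Of the 38 listed receptors, 33 matched, and Opn4 alone held CATGTG. A match is a run of letters and not evidence of binding.

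The values that chose the members are a description. The muscle sum had a median of 37 UMIs (range 5 to 126) and the pigment sum a median of 37 (range 2 to 159). All 6 muscle genes were detected in 443 members (48.7%), and all 5 pigment genes in 694 (76.3%). Just inside the limits, 13 members had a muscle sum of 5 and 11 had a pigment sum of 2. Just outside, 73 nuclei had a muscle sum of 4, with a median pigment sum of 2, and 26 had a pigment sum of 1. Another 128 nuclei had enough muscle UMIs from 2 genes only, and 87 failed by the glial limit alone. The plot of the sums shows the members as a cloud high on both axes with a thin fringe along the limits.

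**Figure D1:**
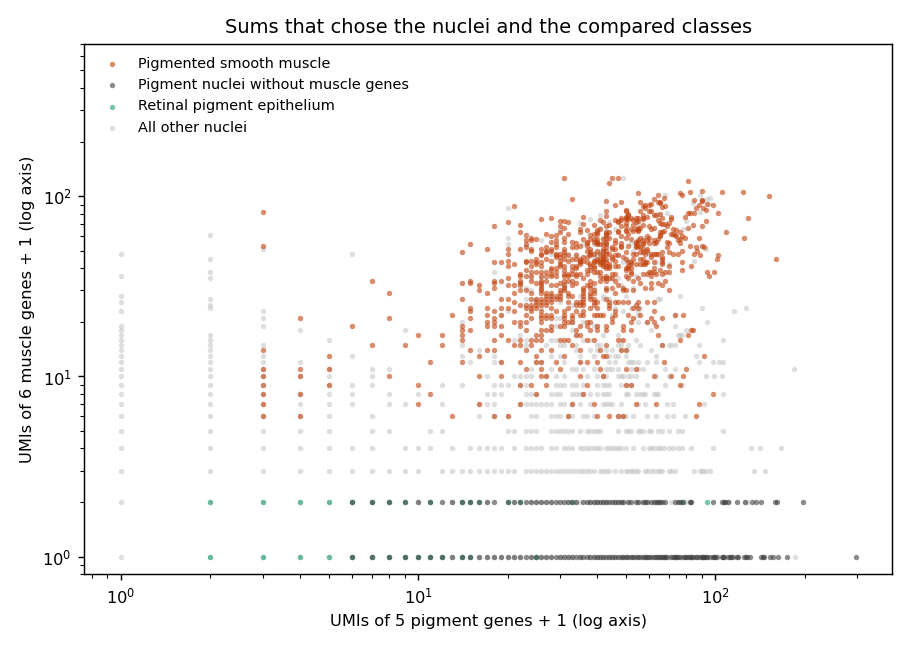
UMIs of the 6 muscle genes (vertical, plus 1, log axis) against UMIs of the 5 pigment genes (horizontal, plus 1, log axis), 1 point for each pair of sums that occurs in a class. The 910 members lie at a muscle sum of 5 or more by construction, with medians of 37 on both axes, and the pigment nuclei without muscle genes lie at a muscle sum of 0 or 1.

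At 5 months 229 and 403 nuclei were members, and at 2.5 months 167 and 111 nuclei were. Their median depth was 2974 and 3529 UMIs at 5 months, against 3519 and 4135 UMIs at 2.5 months, and ran from 744 to 22239 UMIs over single nuclei. Of the 910 member barcodes, 5 also occur in another library, and no barcode was a member in 2 libraries. The levels below are CPM, the UMIs of a gene per 1000000 UMIs summed over the nuclei of a class in a library.

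All 6 markers behind the name (Myh11, Acta2, Smtn, Mylk, Gpnmb and Pmel) were present in every library, and their summed level ran from 13504 to 14253 CPM in members. These 6 are genes of the rule, so their level follows from the selection and is no support for the name. Pericyte and vascular smooth muscle markers summed to 42.3 to 75.3 CPM over 8 genes in members, with Higd1b at 0, against 13.6 to 37.5 CPM in rods. In the other pigment classes, defined below, they overlapped with members. They summed to 49.8 to 132 CPM in pigment nuclei without muscle genes and to 47.1 to 67.4 CPM in retinal pigment epithelium. Without the sub-groups that hold markers of other cell types, described below, members had 29.1 to 50.9 CPM. Sox10, which marks neural crest melanocytes, lay between 0 and 1.57 CPM in members. The classic smooth muscle genes Cnn1, Actg2, Kcnmb1 and Pln lay between 0 and 3.87 CPM in every library, and Des reached 11.0 CPM in 1 library. No list held a gene particular to the iris, and the labels name retina only, so that the iris part of the name was not tested. Rod markers summed to 2248 to 4395 CPM over 8 genes in members and to 19452 to 21073 CPM in rods, so RNA of rods is present in the members' counts.

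Members were compared within each library with 561 pigment nuclei without muscle genes (pigment sum of at least 5 from at least 3 genes, muscle sum of at most 1, with the same ceilings as the members) and with 200 nuclei of retinal pigment epithelium (at least 3 UMIs of Rpe65, a pigment sum of at least 1 and a muscle sum of at most 1). The first class held Sox10, at 174 to 223 CPM, and also Pax6, at 290 to 580 CPM, so it is called by its rule and not as 1 cell type. Nuclei of the second class also held Sox10, at 93.2 to 141 CPM. Counts were summed per library and class and tested with edgeR's quasi-likelihood test with library as a block and Benjamini-Hochberg adjustment, without the genes of the rule. Against pigment nuclei without muscle genes, 909 genes were higher and 827 lower of 8791 tested, so that the background of called genes is 19.7% (10.3% higher and 9.41% lower). Against retinal pigment epithelium, 1186 were higher and 1204 lower of 7275 tested (32.9%, with 16.3% higher and 16.5% lower). Because the classes were cut by muscle and pigment genes, calls on other genes of the same programmes are a description of the classes and not independent of the rule. How many of all genes tested had no overlap of libraries between classes was not counted. Lack of overlap of single genes below is thus a description without a background.

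Chrm2, Tacr3 and the alpha-1 adrenergic receptors were higher in members than in other pigment nuclei, and the endothelin receptors were lower. Of 38 listed receptors, 14 had enough counts against pigment nuclei without muscle genes, of which 7 were higher (Adra1a, Adra1b, Chrm2, Tacr3, Npr3, Htr2a and Opn4), 2 were lower (Ednra and Ednrb) and 5 were not called. The other 24 had too few counts. A gene could pass the count filter through the members alone, as Htr2a did with 0 UMIs in the other class, so these counts describe the receptors that passed and do not speak for the list. Against retinal pigment epithelium, 8 of 11 were higher and 1, Chrm3, was lower.

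Chrm2, the muscarinic acetylcholine receptor that couples to inhibitory G proteins (chr6:36388084-36528414, plus strand), had 808 and 660 CPM in members at 5 months and 720 and 870 CPM at 2.5 months. In the same order of libraries, pigment nuclei without muscle genes had 29.0, 13.6, 1.83 and 0 CPM, and retinal pigment epithelium had 14.97, 5.89, 33.2 and 32.9 CPM. Every library of members lay far above every library of the other classes, and rods, which give the background of free RNA, had 2.91 to 8.005 CPM. The log2 fold change was 6.09 ± 0.36 (SE, adjusted p = 2.2e-07) over pigment nuclei without muscle genes and 4.93 ± 0.29 (adjusted p = 2.9e-08) over retinal pigment epithelium. Chrm3, the muscarinic receptor that couples to phospholipase C and drives most iris sphincter contraction, had 70.1 and 72.8 CPM at 5 months and 28.3 and 61.5 CPM at 2.5 months in members, and averaged 218 ± 46.7 CPM in retinal pigment epithelium (SD, n = 4 libraries). Without the sub-groups with markers of other cell types it was at 17.1 to 42.7 CPM in members.

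Tacr3, the receptor for neurokinin B (chr3:134829007-134934579, plus strand), had 401 and 418 CPM in members at 5 months and 339 and 288 CPM at 2.5 months, against 0 to 8.27 CPM in pigment nuclei without muscle genes. The groups did not overlap, and the log2 fold change was 7.34 ± 0.32 (SE, adjusted p = 3.7e-08). Tacr1, the receptor for substance P, was at the level of the other pigment nuclei: 84.4 to 159 CPM in members and 99.7 to 199 CPM in pigment nuclei without muscle genes, while retinal pigment epithelium had 0 to 7.48 CPM. Its log2 fold change over pigment nuclei without muscle genes was -0.21 ± 0.20 (SE, adjusted p = 0.55), and over retinal pigment epithelium 5.32 ± 0.51 (adjusted p = 2.8e-06).

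The alpha-1 adrenergic receptors, through which noradrenaline contracts the iris dilator, were both higher in members. Adra1a had 242 and 202 CPM in members at 5 months and 179 and 240 CPM at 2.5 months, against 0 to 31.8 CPM in pigment nuclei without muscle genes, a log2 fold change of 3.17 ± 0.31 (SE, adjusted p = 1.3e-05). Adra1b had 56.9 and 34.2 CPM in members at 5 months and 76.9 and 38.4 CPM at 2.5 months, against 0 to 3.66 CPM (log2 fold change 4.16 ± 0.43, adjusted p = 2.1e-05). Neither receptor overlapped between the classes. Htr2a, a serotonin receptor that couples to phospholipase C, had 30.3 to 47.6 CPM in members. It had 0 UMIs in all 4 libraries of pigment nuclei without muscle genes, so that its summed level was at least 23.1-fold higher in members with a floor of 3 UMIs over the class. The endothelin receptors ran the other way, with Ednrb at 1.92 to 5.80 CPM in members and 335 to 865 CPM in pigment nuclei without muscle genes.

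Opn4, the photopigment melanopsin of intrinsically photosensitive ganglion cells (chr14:34590618-34600142, minus strand), was low, and higher in members than in pigment nuclei without muscle genes. It had 30.4 and 38.0 CPM in members at 5 months and 33.0 and 23.0 CPM at 2.5 months, from 115 UMIs in all. Pigment nuclei without muscle genes had 4.14, 6.82, 0 and 4.53 CPM, rods had 0.80 to 2.89 CPM, and retinal pigment epithelium had 0 to 7.48 CPM, so no library of these classes reached the members. Against retinal pigment epithelium Opn4 did not pass the count filter and was not tested. The log2 fold change over pigment nuclei without muscle genes was 2.95 ± 0.47 (SE, adjusted p = 6.0e-04). Ganglion cells carry Opn4 as well, and the ceiling on Slc17a6 UMIs in the rule limits but does not remove their RNA. The ganglion list summed to 1424 to 1675 CPM over 5 genes in members and to 95.3 to 128 CPM in rods, nearly all of it from Rbpms (1369 to 1633 CPM), an RNA-binding protein that smooth muscle also makes. Of the other 4 genes, Pou4f1 had 3.22 to 9.42 CPM, Pou4f2 0.644 to 1.92 CPM, Slc17a6 0 to 5.29 CPM and Nefl 31.6 to 46.3 CPM in members. Without the sub-groups that hold markers of other cell types, described below, members had 26.5 to 44.6 CPM of Opn4.

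Plcb4, the phospholipase C that melanopsin signalling uses in mouse ganglion cells and iris, had 3365 and 2758 CPM in members at 5 months and 3532 and 4078 CPM at 2.5 months. Pigment nuclei without muscle genes had 400.1 to 679 CPM, retinal pigment epithelium had 148 to 239 CPM, and the members lay above both in every library. The log2 fold change was 2.62 ± 0.13 (SE, adjusted p = 5.6e-08) over pigment nuclei without muscle genes. The RNA gene 9630028H03Rik (chr2:135325447-135583584, minus strand, annotated as antisense), which lies on the same chromosome as Plcb4 (chr2:135659011-136014593, plus strand), had 262 to 519 CPM in members and 1.83 to 12.4 CPM in pigment nuclei without muscle genes. Whether counting used strand is not given in the sources used here, so reads of 9630028H03Rik and of any overlapping gene cannot be told apart. Of 34 calcium and contraction control genes, 28 were tested against pigment nuclei without muscle genes, with 10 higher, among them the calcium release channels Ryr3 and Itpr2 and the calcium pump Atp2a2, and 5 lower, among them Cacna1c, Prkg1 and Pde5a. Prkg1, the cGMP-dependent kinase that relaxes smooth muscle, had 229 to 521 CPM in members and 1835 to 3103 CPM in pigment nuclei without muscle genes. Without the sub-groups with markers of other cell types it was at 55.5 to 150.4 CPM in members.

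**Figure D2:**
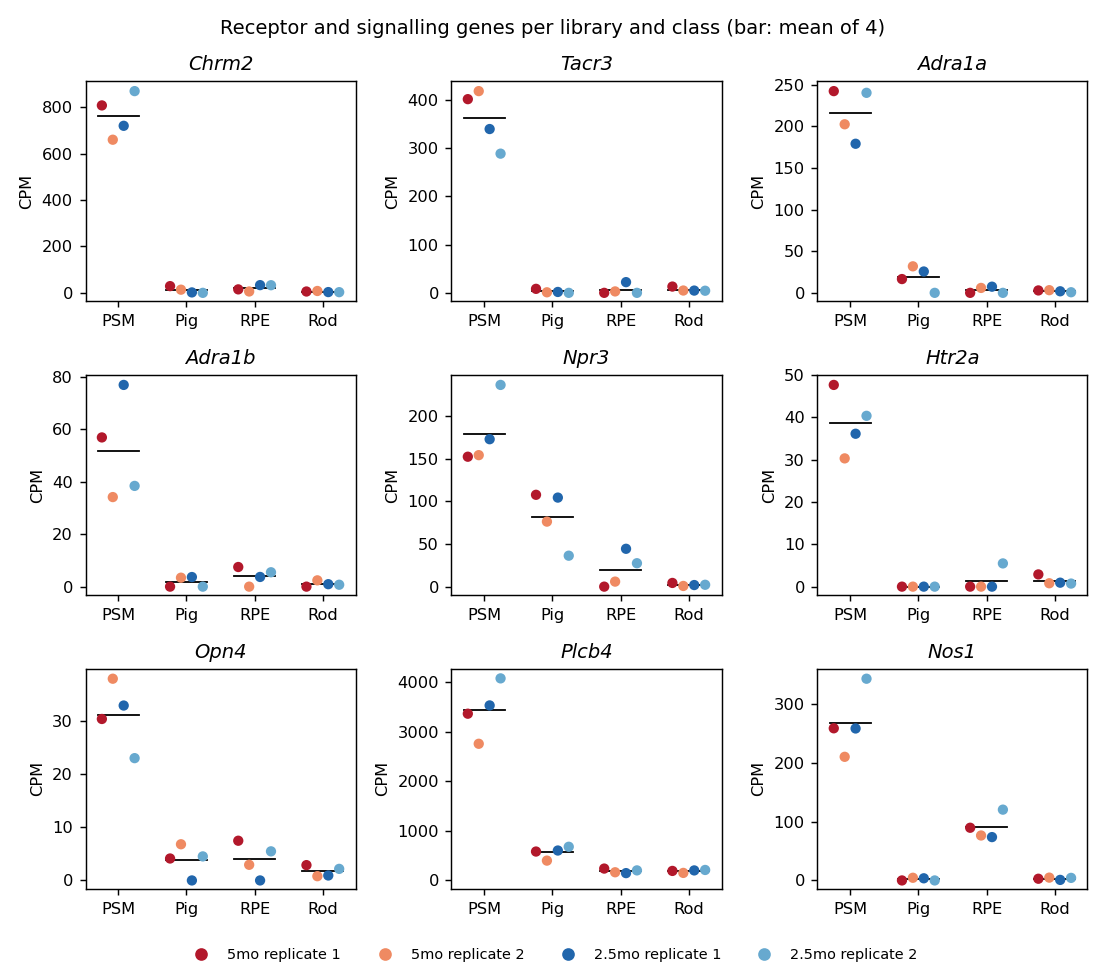
CPM (vertical, linear, a scale of its own per gene) of 9 receptor and signalling genes in pigmented smooth muscle (PSM), pigment nuclei without muscle genes (Pig), retinal pigment epithelium (RPE) and rods (Rod), 1 point per library and a bar for the mean of 4 libraries. In the panels of Chrm2, Tacr3 and Plcb4 all 4 points of pigmented smooth muscle stand above every point of the other classes.

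Nos1 and Hhip were also higher in members. Nos1, the neuronal nitric oxide synthase, had 259 and 211 CPM in members at 5 months and 259 and 344 CPM at 2.5 months, against 0 to 4.55 CPM in pigment nuclei without muscle genes and 73.9 to 121 CPM in retinal pigment epithelium. The log2 fold changes were 6.22 ± 0.32 (SE, adjusted p = 8.0e-08) and 1.34 ± 0.18 (adjusted p = 6.5e-05). Hhip, an inhibitor of hedgehog ligands, had 229 to 284 CPM in members and 1.14 to 9.15 CPM in pigment nuclei without muscle genes.

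Contractile genes outside the rule followed the genes that chose the members. Of 25 listed, 21 were tested against pigment nuclei without muscle genes, and 15 were higher, 0 lower and 6 not called. Tpm1, a tropomyosin, had 926 and 932 CPM in members at 5 months and 764 and 793 CPM at 2.5 months, against 70.3 to 139 CPM. Myl9, the regulatory light chain of smooth muscle myosin whose upstream sequence holds a CArG box, had 243 and 392 CPM at 5 months and 261 and 190 CPM at 2.5 months, against 4.14 to 18.1 CPM (log2 fold change 4.85 ± 0.30, adjusted p = 3.5e-07). Lmod1, an actin nucleator of smooth muscle, had 146 and 122 CPM at 5 months and 92.6 and 159 CPM at 2.5 months, against 0 to 4.53 CPM. None of these 3 genes, picked as examples, overlapped between the classes, and the share of such genes over all genes was not counted. Against retinal pigment epithelium 16 of 20 contractile genes were higher, while Pdlim5 and Sorbs2 were lower, and Cald1 did not pass the test (log2 fold change -0.19 ± 0.16, adjusted p = 0.43).

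Pax6 was higher in members than in both other pigment classes, and Sox10 was lower than in both. Pax6, required for the eye primordium and for the iris, had 987 and 1065 CPM in members at 5 months and 994 and 1008 CPM at 2.5 months, against 290 to 580 CPM in pigment nuclei without muscle genes and 36.9 to 124 CPM in retinal pigment epithelium. The differences were 1.10 ± 0.16 (SE, adjusted p = 3.6e-04) and 3.57 ± 0.26 (adjusted p = 1.7e-07) on the log2 scale. Of 12 optic cup and eye factors tested against pigment nuclei without muscle genes, Pax6, Lhx2, Tbx5, Meis1 and Meis2 were higher, Six3 and Zic1 were lower and 5 were not called. Of 15 listed neural crest and periocular factors 4 were tested, of which Sox10, Pax3 and Tfap2a were lower and Tfap2b was not called. Sox10 and Pax3, near 0 in members, could pass the count filter only through the other class, where they were high. These counts therefore describe the factors that passed and do not speak for the list. Tfap2b had 44.2 to 74.1 CPM in members and 13.6 to 64.8 CPM in pigment nuclei without muscle genes (log2 fold change 0.31 ± 0.23, adjusted p = 0.45). Pax3 had 0 to 1.93 CPM in members and 233 to 657 CPM in pigment nuclei without muscle genes (log2 fold change -7.90 ± 0.33, adjusted p = 2.7e-08). Mitf, the master regulator of pigment cells, had 683 to 926 CPM in members and 766 to 1314 CPM in pigment nuclei without muscle genes (log2 fold change -0.34 ± 0.13, adjusted p = 0.089). Myocd, the coactivator of smooth muscle genes, was below the filter on low counts at 3.97 to 21.1 CPM in members.

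Melanin genes outside the rule were split. Against pigment nuclei without muscle genes, 3 of 23 tested were higher, 12 lower and 8 not called. Against retinal pigment epithelium, 11 of 20 were higher and 3 lower. Tyr, the first enzyme of melanin synthesis, had 1994 and 2043 CPM in members at 5 months and 2984 and 2741 CPM at 2.5 months, against 1780 to 3379 CPM in pigment nuclei without muscle genes, and the ranges overlapped (log2 fold change -0.06 ± 0.14, adjusted p = 0.85). Slc45a2, a melanosome transporter, was lower in members, at 65.3 to 88.7 CPM against 242 to 516 CPM (log2 fold change -2.04 ± 0.20, adjusted p = 1.3e-05). Slc7a11, the cystine transporter that shapes the red and black balance of pigment, was higher, at 288 to 332 CPM against 74.5 to 154 CPM (1.61 ± 0.17, adjusted p = 2.4e-05). Trpm1, a cation channel first described in melanocytes, was also higher, at 2005 to 2660 CPM against 881 to 1055 CPM (1.24 ± 0.12, adjusted p = 1.5e-05).

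Junction and basement membrane genes moved in both directions. Gja1, the gap junction protein connexin 43, had 625 to 695 CPM in members and 249 to 499 CPM in pigment nuclei without muscle genes (log2 fold change 0.64 ± 0.17, adjusted p = 0.016). Col4a5 and Col4a6, the paired type IV collagen chains of smooth muscle basement membranes, had 636 to 778 CPM and 570 to 715 CPM in members, against 222 to 525 CPM and 118 to 498 CPM. Col4a1 and Col4a2, the ubiquitous pair, were lower in members, at 9.26 to 20.4 CPM and 18.8 to 31.6 CPM, against 36.2 to 46.6 CPM and 44.3 to 95.1 CPM. Of 21 basement membrane genes tested, 6 were higher, 7 lower and 8 not called. Nuclei with the muscle genes but without pigment genes numbered 26 in all (12 and 5 at 5 months, 7 and 2 at 2.5 months) and were not tested.

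Clustering the members without the genes of the rule gave 7 sub-groups, which are described without a test. Sub-group 1, of 322 nuclei, was led by 4930545L23Rik, 9630028H03Rik and Arfgef3 and had the highest Chrm2, at 1102 CPM. Sub-group 2, of 274 nuclei, was led by Agbl1, Ttn and Terb1, and held more Acta2 (2300 CPM) and Myl9 (541 CPM) than sub-group 1 (1464 and 290 CPM). Sub-group 3, of 129 nuclei, was led by Cntnap4 and Spock1, a proteoglycan of the matrix, and differed in its receptors: Tacr3 was at 138 CPM, against 487 and 557 CPM in sub-groups 1 and 2, Tacr1 at 227 CPM, against 64.9 and 49.2 CPM, and Npsr1, the neuropeptide S receptor, at 788 CPM, against 106 and 80.4 CPM. Adra1a was at 259 CPM in sub-group 3, against 284 and 221 CPM in sub-groups 1 and 2. Sub-group 4, described below, also had high Npsr1 (763 CPM) and Tacr1 (310.4 CPM).

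The place of Agbl1 and Ttn at the head of sub-group 2 rests on 1 nucleus of 5-month replicate 1. That nucleus held 112 of the 126 Agbl1 UMIs and 74 of the 102 Ttn UMIs of all members, with 21 UMIs of Mylk4, 26 of Neb and 15 of Ryr1, genes of striated muscle. It had 7019 UMIs in all, a muscle sum of 35 and a pigment sum of 25, and 44 UMIs of the 10 skeletal muscle markers. The rest of sub-group 2 had 1 UMI of Agbl1 and 13 of Ttn.

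The other 4 sub-groups held markers of other cell types. Sub-group 4, of 94 nuclei, had the lowest median muscle sum, of 13 UMIs. It was led by Adamts16 and by the transcription factors Tbx20 (345 CPM, against 2.35 and 2.40 CPM in sub-groups 1 and 2) and Zic1 (201 CPM, against 0 and 1.20 CPM), with fibroblast markers at 12.9 times the mean of sub-groups 1 and 2. Sub-group 5, of 39 nuclei, had a median of 6897 UMIs, and 31 of its nuclei were called as doublets. Its fibroblast, amacrine and cone markers were at 6.63, 5.99 and 4.97 times that mean (926, 413 and 992 CPM). Its horizontal cell markers were at 25.4 times that mean, but from a low level: 75.6 CPM, against 2.35 and 3.60 CPM in sub-groups 1 and 2. Sub-group 6, of 37 nuclei, was led by Gm10801, Gm26870 and Ms4a7 and had macrophage markers at 5.50 times that mean. Sub-group 7, of 15 nuclei, was led by the cone genes Pde6c, Arr3 and Opn1mw, with cone markers at 48.8 times that mean and 11 called doublets. Together sub-groups 4 to 7 held 185 members and 27.4% of the members' UMIs. With them left out, 14 of 20 contractile genes and 7 of 14 receptors were higher than in pigment nuclei without muscle genes, and 0 and 2 were lower, against 12.1% higher and 13.4% lower of 8001 genes tested (25.5% in all). Against retinal pigment epithelium 16 of 19 contractile genes and 8 of 11 receptors were then higher, and 2 and 1 lower, against 18.8% higher and 19.4% lower of 6473 genes tested (38.2% in all). Called doublets were 23 and 48 of the members at 5 months and 0 and 0 at 2.5 months, where the caller marked 3 and 1 nuclei of the whole library and so had not worked.

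**Figure D3:**
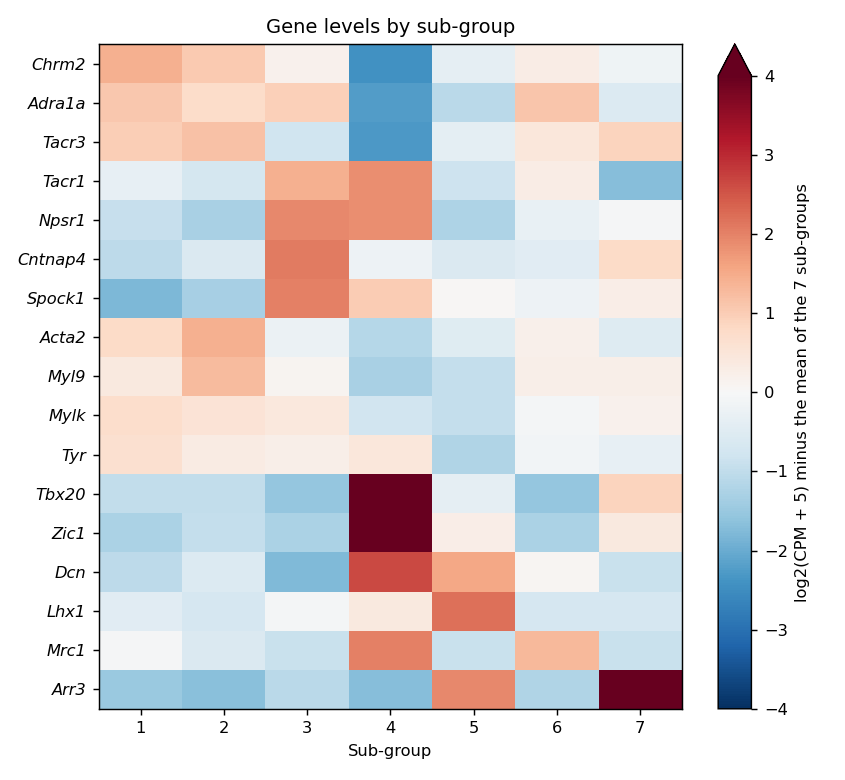
Levels of 17 genes in the 7 sub-groups of pigmented smooth muscle nuclei, as log2(CPM + 5) minus the mean of the 7 sub-groups (colour, capped at 4 in either direction). Sub-group 3 is high in Npsr1, Cntnap4 and Spock1, sub-group 4 in Tbx20 and Zic1, and sub-group 7 in Arr3.

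The make-up differed widely between libraries of the same age. Sub-group 1 made up 59.0% and 16.6% of the members at 5 months and 35.9% and 54.1% at 2.5 months. Sub-group 2 made up 15.3% and 43.4% at 5 months and 31.1% and 10.8% at 2.5 months. Sub-group 3 made up 9.17% and 17.9% at 5 months and 13.8% and 11.7% at 2.5 months, and sub-group 5 made up 5.24% and 5.46% at 5 months and 1.20% and 2.70% at 2.5 months.

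**Figure D4:**
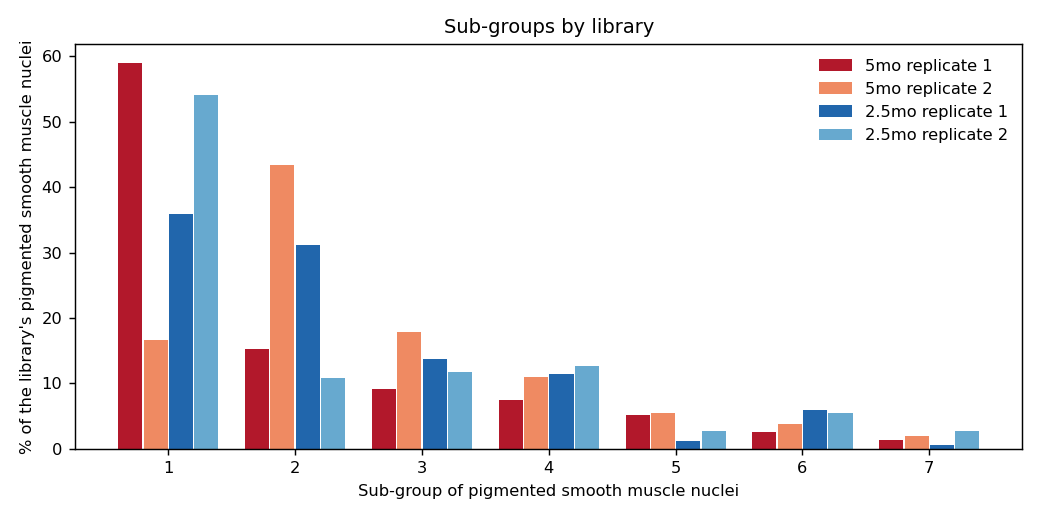
Share of each library's pigmented smooth muscle nuclei in each of the 7 sub-groups (bars, % of the library's members, vertical axis from 0), with the 5-month libraries left of the 2.5-month libraries. For sub-groups 1 and 2 the 2 libraries of each age differ widely, with 59.0% and 16.6% of members in sub-group 1 at 5 months.

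The share of members among all nuclei was 3.04% (95% Wilson interval 2.67 to 3.45) and 4.05% (3.68 to 4.45) at 5 months, against 2.26% (1.95 to 2.63) and 1.496% (1.24 to 1.80) at 2.5 months. The means were 3.54% ± 0.713 at 5 months and 1.88% ± 0.541 at 2.5 months (SD, n = 2 libraries each), a difference of 1.66 percentage points. The libraries did not overlap between the ages, but the exact two-sided permutation test gave p = 0.33, which is the smallest that 2 against 2 libraries can give. Rods made up different parts of the libraries, and with nuclei of at least 3 UMIs of rod genes left out of the denominator the shares were 3.86% and 5.03% at 5 months and 3.84% and 2.71% at 2.5 months. Members per pigment nucleus without muscle genes were 2.69 and 1.62 at 5 months and 0.988 and 1.91 at 2.5 months, and these overlapped. The labels do not say how much iris came along with each dissected retina. The intervals cover counting error only.

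Between the ages, the contractile, receptor and melanin genes of the members showed no change that passed the test. Over all genes, 40 were higher (0.421%) and 6 lower (0.0632%) at 5 months of 9490 tested with edgeR's quasi-likelihood test (0.485% in all). None of the 22 contractile, 13 receptor, 29 calcium control, 13 optic cup and 22 melanin genes tested was called, with median log2 fold changes of 0.04, 0.21, -0.01, 0.01 and -0.11, against 0.00 over all genes. Chrm2, for example, averaged 734 ± 105 CPM at 5 months and 795 ± 106 CPM at 2.5 months (SD, n = 2 libraries each).

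Most called genes lay in the sub-groups that hold markers of other cell types. The 40 genes higher at 5 months had a median of 84.0% of their UMIs in sub-groups 4 to 7, and 34 had over 50% there. Thsd7b, a gene among the leaders of sub-group 5, had 72.8 and 106 CPM at 5 months, against 6.28 and 9.60 CPM at 2.5 months (log2 fold change 3.55 ± 0.39, adjusted p = 0.0058). Without sub-groups 4 to 7 it had 8.74 and 7.28 CPM at 5 months and 4.28 and 10.6 CPM at 2.5 months, and 105 of its 228 UMIs lay in 1 nucleus. Mgat4c, and Fgf14, Kcnip1, Kcnc2, Nrg3 and Tenm1, genes of neuronal channels, signals and adhesion, had 75.7% to 88.0% of their UMIs in those sub-groups. Gpc6, a cell surface proteoglycan that was lower at 5 months (97.9 and 151 CPM, against 629 and 315 CPM at 2.5 months), had 91.9% of its UMIs there. With sub-groups 4 to 7 left out, 1 gene was higher (Gm44511) and 1 lower (Rps21) of 7986 tested (0.0125% in each direction, 0.025% in all), and with called doublets left out none was called, with 634 genes at an unadjusted p below 0.05. Leaving out called doublets removed members at 5 months only.

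Some called genes had most of their UMIs outside those sub-groups. Rps21, a protein of the small ribosomal subunit, had 10.6 and 14.2 CPM at 5 months, against 206 and 96.0 CPM at 2.5 months (log2 fold change -3.52 ± 0.40, adjusted p = 0.0062), and its change in all other nuclei was -3.21. Rps2 was at 9.26 and 11.0 CPM, against 124 and 48.0 CPM (-3.03 ± 0.46, adjusted p = 0.023), and its change in all other nuclei was -4.16. Gm44511, chosen after its values were seen, had 1499 UMIs at 5 months and 242 at 2.5 months in members (log2 fold change 1.68 ± 0.17, adjusted p = 0.0042), and its change in all other nuclei was 1.495. None of these 3 genes differed between members and other nuclei in its age change by the test (adjusted p = 0.98, 0.33 and 0.99). Hist1h4d, a replication-dependent histone gene, had 18 and 39 UMIs at 5 months and 1 and 0 at 2.5 months (log2 fold change 4.65 ± 0.80, adjusted p = 0.040), and without 5-month replicate 2 the change of 4.53 did not pass (adjusted p = 0.10). AC149090.1 fell to 110 and 153 CPM at 5 months, against 326 and 303 CPM at 2.5 months (-1.21 ± 0.21, adjusted p = 0.038). In all other nuclei Hist1h4d changed by 2.10 and AC149090.1 by -0.96. Neither change differed from that of members by the edgeR test (adjusted p = 0.54 and 0.87). Camk1d, also chosen after its values were seen, had 34.0% of its UMIs in the sub-groups with markers of other cell types. In members it had 1948 UMIs at 5 months and 343 at 2.5 months. Its log2 fold change was 1.51 ± 0.25 (SE, adjusted p = 0.034) in members and 0.48 in all other nuclei. By the edgeR test these changes differed by 0.97 (adjusted p = 0.0043). With those sub-groups left out its change in members was 1.82 (adjusted p = 0.086).

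**Figure D5:**
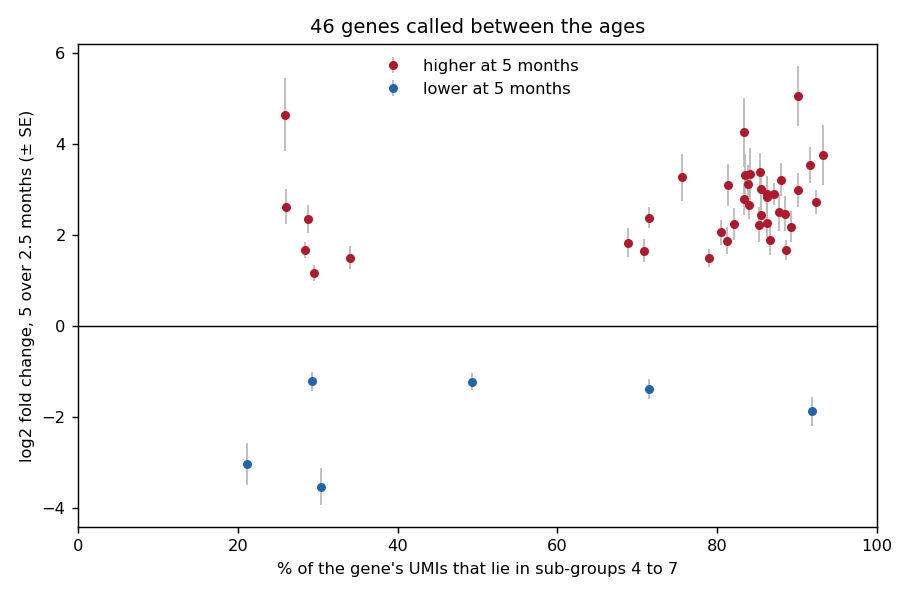
Log2 fold change at 5 months over 2.5 months (vertical, ± SE from edgeR) of the 46 genes called, against the share of their UMIs that lies in sub-groups 4 to 7 (horizontal, %). Of the 40 genes higher at 5 months, 34 lie right of 50%.

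The age change of the members was also set against that of all other nuclei. With library as a block, 112 genes differed upwards (0.628%) and 32 downwards (0.179%) of 17832 tested (0.808% in all), and 1 gene differed in a fit without the block. The share of upward differences was 77.8%, and with called doublets left out it was 39.0% (48 of 123). That setting removed 23 and 48 members at 5 months and 0 and 0 at 2.5 months, and it kept the called doublets among all other nuclei. It treated ages and classes unlike, so the 2 shares do not compare like with like. With sub-groups 4 to 7 left out, 20 differed upwards (0.114%) and 12 downwards (0.0685%) of 17510 tested (0.183% in all). Agbl1 and Mylk4 had 119 and 24 UMIs in members at 5 months, against 7 and 1 UMIs at 2.5 months, and 112 and 21 of these lay in the nucleus with striated muscle RNA described above. Without the library of that nucleus, 5-month replicate 1, neither difference passed the test (1.06 and 1.70 on the log2 scale). Gsto1, an omega class glutathione transferase, had 26.5 and 23.2 CPM in members at 5 months, against 70.6 and 53.8 CPM at 2.5 months. This change of -1.32 did not itself pass the test (adjusted p = 0.16). It differed from that of all other nuclei by -1.54 ± 0.30 (SE, adjusted p = 0.00014). Without 5-month replicate 2 the difference was -0.52 (adjusted p = 1.00), without 1 of the other libraries it ran from -2.04 to -1.39, and without sub-groups 4 to 7 it was -1.21 (adjusted p = 0.19). Gsto1 UMIs were spread over members, with at most 3 in 1 nucleus, and 32.6% of them lay in sub-groups 4 to 7. Of 24 contractile genes tested, Tpm2, Synpo2 and Myl9 differed upwards, with age changes in members of -0.42, 0.26 and 0.54 that themselves did not pass the test (adjusted p = 0.77, 0.80 and 0.69). Of 33 receptors tested Chrm3 alone differed, upwards, and of the 6 markers behind the name Acta2 alone, also upwards. Neither of these 2 genes was called in the age test of members. Other genes that mark the members went the other way: the age change of 9630028H03Rik differed by -1.26 ± 0.19 (SE, adjusted p = 4.4e-08) and that of Nos1 by -0.78 ± 0.20 (adjusted p = 0.022), with changes in members of -0.53 and -0.33 that did not pass the test (adjusted p = 0.64 and 0.77).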

How the data were processed

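The authors deposited a filtered matrix of UMI counts per gene and barcode for each of the 4 libraries. These came from Cell Ranger 4.0.0 at 5 months and 7.1.0 at 2.5 months, per the file headers, with mm10 as the build per the submitters' processing notes. Whether intronic reads were counted is not given in the sources used here. Barcodes above 5% mitochondrial UMIs were left out (27). Members and classes were cut by UMI sums, counts were summed per library and class, and genes passing filterByExpr were tested with edgeR 4.0.16 (TMM, quasi-likelihood, Benjamini-Hochberg over all genes tested, threshold 0.05) in R 4.3.3. DESeq2 1.42.0 was an alternative. Class comparisons and the difference of age effects had library as a block, and the age effect had none. The functions were tested on simulated data. Sub-groups came from Leiden clustering (scanpy 1.11.5, resolution 0.5) without the genes of the rule. A sub-group was taken to hold another cell type at 3 times the mean of sub-groups 1 and 2. Gene positions are GENCODE annotation of GRCm38.

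The members and lists were chosen with earlier results of these data known. Named genes were, among called genes, up to 10 per direction for age (5 for the difference) and 10 for the classes with at least 100 CPM, plus listed genes chosen by role. Total member UMIs per library ran from 520640 to 1551931. Samples were not paired by donor number, since the labels do not say that the numbers pair animals. Deviations of same-numbered libraries correlated at -0.057 over 9490 genes, a single correlation that cannot decide whether they were paired. With 2 libraries per age, p-values measure the spread between these libraries. Scrublet, with 0.06 as the doublet rate to expect, marked doublets, which were kept.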

Additional observations from a re-analysis of the deposited data

Results flagged for a closer look

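For 19 named genes the age change of pigmented smooth muscle nuclei differed from that of all other nuclei by edgeR's quasi-likelihood test with library as a block (144 genes called of 17832). All values are differences on the log2 scale, positive where the change at 5 months over 2.5 months was higher in members.

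Among genes with most of their UMIs in sub-groups 4 to 7, the difference was 3.76 for Kcnip1, 3.13 for Mgat4c, 3.09 for Nrg3, 2.96 for Fgf14, 2.91 for Tenm1, 2.88 for Kcnc2, 2.76 for Thsd7b, 3.98 for Samsn1 and -1.36 for Gpc6. Caln1 differed by -1.55 with 87.0% of its UMIs in those sub-groups, and Igfbp2 by -1.61 with 62.3%. With 1 library left out these 2 genes passed the test in 1 of 4 fits each, the one without 2.5-month replicate 2. Scn3a differed by 9.71 and Gm20642 by 9.56. With 24 and 33 UMIs at 5 months and 0 at 2.5 months, these 2 fitted values are no bound on the change.

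Agbl1 differed by 4.21 and Mylk4 by 4.55, and 88.9% and 84.0% of their UMIs lay in 1 nucleus. With 1 library left out Agbl1 ran from 1.06 to 5.29 and Mylk4 from 1.70 to 7.30, and neither passed the test without 5-month replicate 1 or without 2.5-month replicate 1. Gm45459 differed by 2.88 with 42.4% of its UMIs in 1 nucleus, Gm11728 by -4.04 with 9 of its 18 UMIs in 1 nucleus, and Gm45341 by -2.48 with 10 of 27. Gm45459 and Gm45341 also had 93.2% and 100% of their UMIs in sub-groups 4 to 7. Gsto1 differed by -1.54 with 32.6% there, and by -0.52 without 5-month replicate 2. What sets these differences was not tested.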

How the results depend on the processing

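The 46 genes called for age became 204 without a filter on low counts, 22 with sums thinned to 1 total, 0 with called doublets left out (634 at an unadjusted p below 0.05; DESeq2 on all members called 38) and 2 with sub-groups 4 to 7 left out. Leaving out 1 library gave 128 to 173, where the lone library of an age is assumed to vary like the others. With donor number as a replicate block 62 were called. The 144 differences of age effects became 32 without sub-groups 4 to 7 and 1 with no replicate block, and 77 to 120 with 1 library left out. With called doublets left out 48 of 123 were upward (39.0%), against 77.8% of 144. In both comparisons of ages that setting removed members at 5 months only, and it kept called doublets among all other nuclei. Of the named genes, Gm45341 had a fitted value of 0.60 without sub-groups 4 to 7. Members then held 0 of its UMIs at both ages, so this value measures no change. Without 2.5-month replicate 1 the fitted values of Gm11728 and Caln1 were 5.16 and 10.05, against -11.45 to -3.51 and -2.67 to -1.52 with another library left out. Members held 5 UMIs of Gm11728 and 22 of Caln1 at 5 months, and 13 and 24 at 2.5 months, so these values are no bound on the change. The causes were not tested. The share difference of 1.66 points ranged from 1.16 to 2.17 with 1 library left out. DESeq2 called 1173 genes against pigment nuclei without muscle genes, against 1736 in edgeR. All 220 alternative values of named genes in each class comparison kept direction and side of the threshold. The alternative of leaving out sub-groups was chosen after seeing the data. The comparison with unpigmented smooth muscle was not run, since 3 libraries held under 10 such nuclei.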
